A study of Mus musculus with 7 samples.

Results

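The 10 genes described here regulate how many mitochondria a cell makes and how mitochondria fuse and divide: the coactivators *Ppargc1a* and *Ppargc1b*, the nuclear transcription factors *Nrf1* and *Esrra*, the mitochondrial DNA factor *Tfam*, the fusion genes *Mfn1*, *Mfn2* and *Opa1*, and the fission genes *Dnm1l* and *Fis1*. They were taken by symbol from a table of 24346 genes, with earlier results of these data known, and all 10 were in it. The animals were male mice of C57BL/6J background at postnatal day 100: 4 CrT-/y animals, hemizygous for a deletion of internal exons of the X-linked gene *Slc6a8* in every tissue, and 3 wild-type CrT+/y littermates, with no other allele or agent in either genotype. *Slc6a8* encodes the transporter that brings creatine (Cr) into cells, and its loss models creatine transporter deficiency. RNA of the cerebral cortex of each animal gave 1 library and 1 set of FPKM (fragments scaled to transcript length and to mapped reads), and the comparison asks which of these genes differ in level when Cr uptake is missing. The labels do not say which animals shared a litter.

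Mitochondrial biogenesis is driven largely from the nucleus. The coactivators PGC-1alpha (*Ppargc1a*) and PGC-1beta (*Ppargc1b*) bind transcription factors such as NRF1, GABP (also called NRF2) and ERRalpha (*Esrra*), which switch on genes of the respiratory chain and *Tfam*, whose product packages mitochondrial DNA and starts its transcription. The shape of the network is set by the dynamin-like GTPases MFN1 and MFN2, which join outer membranes, OPA1, which joins inner membranes and holds cristae together, and DRP1 (*Dnm1l*), which constricts and divides mitochondria. FIS1 is an outer membrane protein of the fission machinery. In neurons this balance is known for setting how mitochondria reach axons and synapses, and PGC-1alpha is known for its high level in parvalbumin interneurons of the cortex.

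*Slc6a8* was at 12.4, 14.9, 14.7 and 15.7 FPKM in CrT-/y replicates 0 to 3 and at 32.3, 29.6 and 28.0 FPKM in CrT+/y replicates 1 to 3. This was 48.1% of the wild-type mean (log2 fold change -1.05, limma adjusted p = 0.0024), with the value taken over the whole gene and not over the deleted exons. The number of genes above 0 FPKM was 17612 to 17821 in CrT-/y and 17207 to 17477 in CrT+/y libraries. Counts were not used here, so depth is known only in relation between libraries: over 2568 weakly expressed genes, the most frequent log2 ratio to CrT-/y replicate 0 lay between -0.32 and 0.20, where a higher ratio means that 1 read was worth more. The markers of neurons and glia that define the labelled tissue were above 0 FPKM in each library. Of 12 marker lists for cell types and neighbouring regions, the endothelial list lay lower in CrT-/y animals without overlap (summed FPKM of 5 genes 83.7 to 101 against 102 to 121, 3 of 5 passing the test lower), as did the list of oligodendrocyte precursors (4 genes, 64.3 to 77.7 against 78.4 to 84.6, 0 passing). Of the excitatory neuron markers, *Neurod6* was lower, and single markers of inhibitory neurons (*Gad1*) and of the olfactory bulb (*Cdhr1*) were higher. The summed markers of ependyma and choroid plexus reached 395 FPKM in CrT+/y replicate 2 against 8.69 to 54.8 FPKM in the other 6 animals, and the striatal ones spread from 75.2 to 327 FPKM over both genotypes. The part of any of these in the values below was not tested, and in bulk tissue fewer cells of a type cannot be told apart from less RNA per cell.

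In wild-type cortex the fission genes were the most abundant of the 10 and the coactivator *Ppargc1b* the least. On the FPKM scale, which is per transcript length, *Fis1* lay at 88.7 to 115 FPKM over the 3 CrT+/y animals, *Dnm1l* at 77.1 to 82.4 FPKM, *Mfn2* at 63.6 to 68.8 FPKM and *Opa1* at 42.8 to 45.9 FPKM. *Esrra* followed at 20.0 to 21.7 FPKM, *Mfn1* at 17.3 to 20.1 FPKM and *Ppargc1a* at 12.2 to 15.4 FPKM. Below these were *Tfam* at 9.33 to 10.2 FPKM, *Nrf1* at 5.13 to 5.60 FPKM and *Ppargc1b* at 3.31 to 4.01 FPKM. *Esrra* and *Mfn1* were the only neighbours in this order whose wild-type ranges overlapped. In the CrT-/y animals the order of the means was the same, and *Mfn1* (15.4 to 16.5 FPKM) stood clear of *Esrra* (20.4 to 22.3 FPKM). Set against the 12988 genes whose mean reached 1 FPKM, which are the genes tested, the level of *Fis1* was at percentile 95.3, that of *Mfn1* at 63.3 and that of *Ppargc1b* at 20.6.

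**Figure D1:**
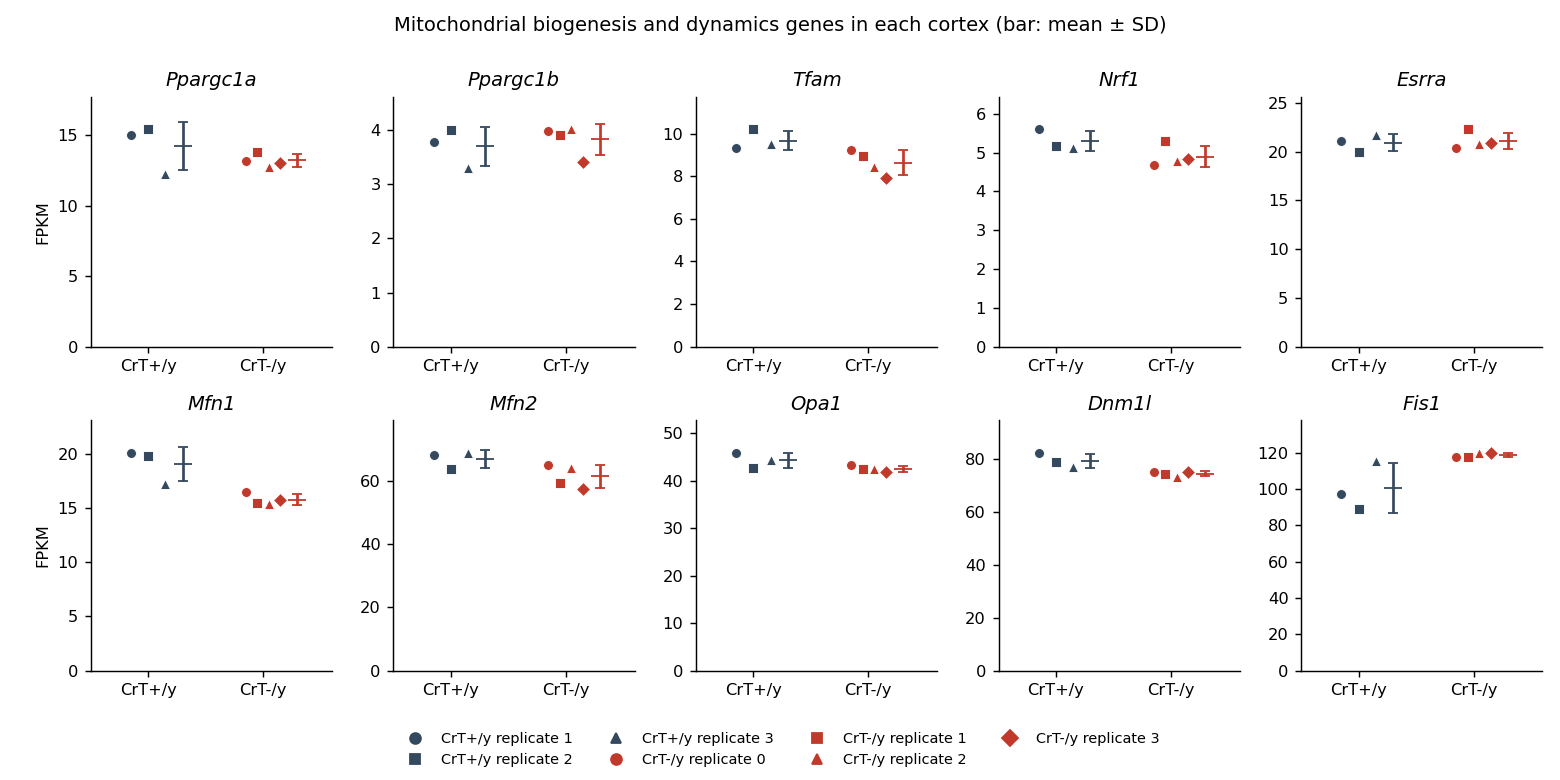
FPKM (vertical axes, each from 0) of the 10 genes in each cortex, with CrT+/y animals in blue, CrT-/y animals in red, 1 symbol per replicate number and bars for the mean ± SD. *Mfn1*, *Tfam* and *Dnm1l* lie lower and *Fis1* higher in all 4 CrT-/y animals than in all 3 CrT+/y animals, and the genotypes overlap in the other 6 genes.

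Sequence around the transcription start is shown for 5 genes because it holds letters of the motifs of factors named above. Promoter windows of 250 bases before to 50 after a start, from RefSeq for assembly GRCm38.p6, existed for 9 of the 10 genes (14 windows), and *Ppargc1b* had none. They were searched on both strands for CCGGAAG, the ETS core that GABP binds, for the NRF1 core GCATGCGC and the longer NRF1 site that has GC added before that core and so overlaps it, for the ERR element TCAAGGTCA and for the cyclic AMP response element TGACGTCA. CCGGAAG was in 5 of the 14 windows, from the genes *Mfn1*, *Fis1*, *Tfam* and *Dnm1l*, and in 8.86% of all 32851 windows. The longer NRF1 site was in that of *Opa1* alone and in 0.971% of all windows, and the core also in that of *Esrra* (2.71% of all windows). Neither the ERR element (0.423% of all windows) nor the cyclic AMP response element (1.79%) was in a window of the 9 genes. The motif stands in capitals, and distances are from the RefSeq start of the window. The stretch before the first annotated transcript of *Mfn1* (chr3:32529232-32529464, plus strand) has it 44 bases before the start, and that of *Fis1* (chr5:136953025-136953274, plus strand) 18 bases before. Of the others 30 bases are given, on the strand of the gene. *Tfam* (chr10:71238073-71238102, minus strand) has the motif 47 bases before the start of its window. Only 14 bases of that window lie before the first annotated *Tfam* transcript, so the 30 bases lie within the annotated gene. *Opa1* (chr16:29579265-29579294, plus strand) has the motif 59 bases before the start. In *Dnm1l* (chr16:16358545-16358574, minus strand) it lies just after the start and on the other strand, so that its reverse complement is read.
Mfn1: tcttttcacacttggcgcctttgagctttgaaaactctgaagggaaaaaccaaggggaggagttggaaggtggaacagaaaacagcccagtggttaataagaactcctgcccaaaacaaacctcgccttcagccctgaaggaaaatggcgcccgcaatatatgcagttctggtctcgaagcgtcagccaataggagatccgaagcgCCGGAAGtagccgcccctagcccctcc
Fis1: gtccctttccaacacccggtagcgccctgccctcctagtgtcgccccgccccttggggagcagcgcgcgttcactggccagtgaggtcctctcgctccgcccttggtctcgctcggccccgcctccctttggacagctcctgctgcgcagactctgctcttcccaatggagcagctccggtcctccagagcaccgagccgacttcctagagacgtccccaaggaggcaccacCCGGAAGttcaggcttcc
Tfam: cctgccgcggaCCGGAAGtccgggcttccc
Opa1: gtggctccccGCGCATGCGCatgtcatccg
Dnm1l: gctgtcgcttcCTTCCGGccgctgaggacg
A match is a description of the letters and not of binding. The 4 genes with CCGGAAG are those whose genotypes did not overlap in the plot of FPKM, 3 lower and 1 higher, a coincidence seen after the values were known and not tested.

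Among the 10 regulators, *Mfn1* alone passed the threshold of an adjusted p under 0.1 with limma, and it was lower in CrT-/y cortex. The other 9 did not pass. A count of 1 of 10 matches the share over all genes tested, since 10.1% of the 12988 genes passed (7.25% lower and 2.90% higher), and 25.0% had an unadjusted p under 0.05. In 4 of the 10 regulators the values of the genotypes did not overlap (3 lower and 1 higher in CrT-/y animals), against 21.6% of all genes tested (15.0% lower, 6.57% higher). Without any 1 of the CrT-/y animals, or without CrT+/y replicate 1 or 2, none of the 10 passed and 64 to 753 of all genes did, and without CrT+/y replicate 3 *Ppargc1a*, *Mfn1* and *Fis1* passed and 3736 of all genes. The share of higher among all genes that passed was 28.6%, and 48.8% after quantile normalization, 56.0% after upper quartile scaling and 48.2% after median centring. The log2 fold change was below 0 in 7 of the 10 (6 after quantile normalization) and in 7554 of the 12988 genes tested. Its median was -0.10 in the 10 against -0.03 over all genes tested. Its size was above the median size of all genes (0.12) in 4 of the 10. No difference of the 10 lay outside the range between the 5th and 95th percentiles of all genes tested, which was -0.33 to 0.32.

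**Figure D2:**
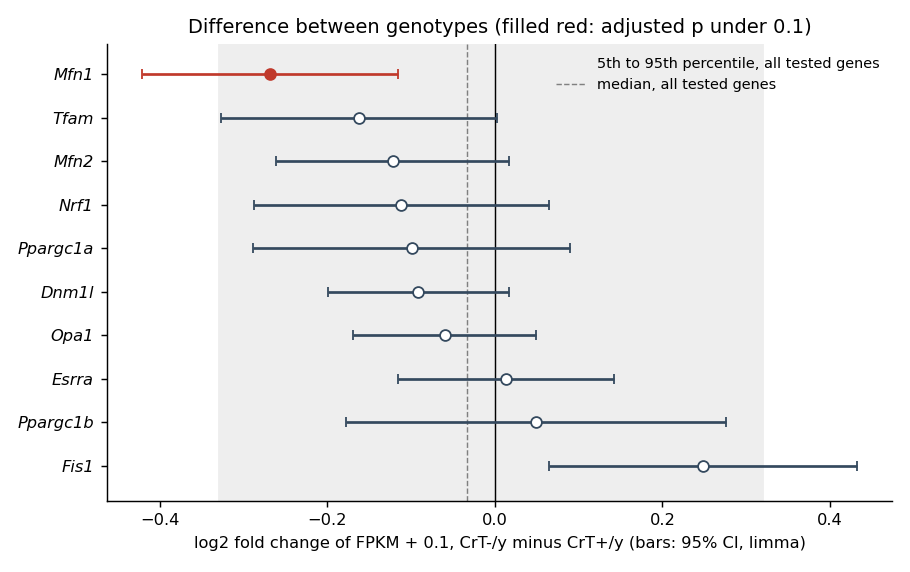
Log2 fold change of FPKM + 0.1, CrT-/y minus CrT+/y, for each of the 10 genes with its 95% confidence interval from limma (horizontal axis, log2 units), the grey band spanning the 5th to 95th percentile and the dashed line the median of all tested genes. The intervals of *Mfn1* and *Fis1* do not reach 0, and the filled red point of *Mfn1* (-0.27) is the one past the adjusted threshold.

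The coactivators did not pass the test. *Ppargc1a* was at 13.2, 13.8, 12.7 and 13.0 FPKM in CrT-/y replicates 0 to 3 and at 15.0, 15.4 and 12.2 FPKM in CrT+/y replicates 1 to 3. CrT+/y replicate 3 was the lowest of all 7 animals and the other 2 wild-type animals were the highest, so the genotypes overlapped. The means were 13.2 ± 0.459 FPKM (SD, n = 4) and 14.2 ± 1.72 FPKM (SD, n = 3), a log2 fold change of -0.10 (95% interval -0.29 to 0.09, adjusted p = 0.495 with limma). Without CrT+/y replicate 3 the log2 fold change was -0.20 and passed (adjusted p = 0.0449 with limma). *Ppargc1b*, the related coactivator, was at 3.98, 3.90, 4.01 and 3.41 FPKM against 3.78, 4.01 and 3.31 FPKM, with 1 low animal in each genotype and full overlap. Its log2 fold change was 0.05 (95% interval -0.18 to 0.28, adjusted p = 0.793 with limma). The ratio of *Ppargc1a* to *Ppargc1b* within an animal was 3.31, 3.54, 3.17 and 3.82 in CrT-/y and 3.96, 3.84 and 3.70 in CrT+/y animals, overlapping through CrT-/y replicate 3.

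The nuclear transcription factors that the coactivators bind did not pass either. *Nrf1* was at 4.69, 5.30, 4.77 and 4.83 FPKM in CrT-/y and at 5.60, 5.17 and 5.13 FPKM in CrT+/y animals, and CrT-/y replicate 1 alone lay within the wild-type range. Its log2 fold change was -0.11 (95% interval -0.29 to 0.06, adjusted p = 0.400 with limma). *Esrra*, which encodes the orphan nuclear receptor ERRalpha, was at 20.4, 22.3, 20.8 and 20.9 FPKM against 21.0, 20.0 and 21.7 FPKM, with the animals of both genotypes mixed. The difference was 0.01 (95% interval -0.12 to 0.14, adjusted p = 0.908 with limma), the smallest of the 10. *Esrra* shares 91 exonic bases with the microRNA gene *Mir6990* on its own strand and 73 with *Trmt112* on the other, and whether the counting used strand is not given in the sources used here.

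*Tfam*, of whose promoter window 30 bases are printed above, was lower in each CrT-/y animal without passing the adjusted test. It was at 9.24, 8.95, 8.44 and 7.93 FPKM in CrT-/y replicates 0 to 3 and at 9.33, 10.2 and 9.49 FPKM in CrT+/y replicates 1 to 3. CrT-/y replicate 0 lay just below the lowest wild-type animal, and replicate 3 farthest from it. The means were 8.64 ± 0.575 FPKM (SD, n = 4) and 9.67 ± 0.464 FPKM (SD, n = 3), 10.7% apart, and the log2 fold change was -0.16 (95% interval -0.33 to 0.0024, adjusted p = 0.205 with limma). The exact two-sided permutation test of the difference of means over the 35 splits of the animals gave p = 0.0571, where 0.0286 is the smallest p the design allows. *Tfam* did not pass under any of 20 other settings (adjusted p 0.162 to 0.395 with limma).

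Of the genes of outer membrane fusion, *Mfn1* fell and *Mfn2* did not pass. *Mfn1* was at 16.5, 15.5, 15.4 and 15.8 FPKM in CrT-/y replicates 0 to 3 and at 20.1, 19.9 and 17.3 FPKM in CrT+/y replicates 1 to 3. All CrT-/y animals lay below all CrT+/y animals, and CrT+/y replicate 3 was nearest to them. The means were 15.8 ± 0.495 FPKM (SD, n = 4) and 19.1 ± 1.58 FPKM (SD, n = 3), and CrT-/y cortex held 82.8% of the wild-type level. The log2 fold change was -0.27 with a standard error of 0.07 (95% interval -0.42 to -0.12, adjusted p = 0.0617 with limma), at rank 648 of the 12988 genes by p. The exact two-sided permutation test gave p = 0.0286, the smallest the design allows. The call was lost without CrT-/y replicate 0 (adjusted p = 0.101 with limma), 1 (0.165), 2 (0.158) or 3 (0.135) and without CrT+/y replicate 1 (0.171) or 2 (0.132), while without CrT+/y replicate 3 the adjusted p with limma was 0.0078 at a log2 fold change of -0.34. *Mfn2*, the related mitofusin that also tethers mitochondria to the endoplasmic reticulum, was at 65.2, 59.4, 64.0 and 57.5 FPKM in CrT-/y and at 68.3, 63.6 and 68.8 FPKM in CrT+/y animals. CrT-/y replicates 0 and 2 lay above CrT+/y replicate 2, so the genotypes overlapped. Its log2 fold change was -0.12 (95% interval -0.26 to 0.02, adjusted p = 0.249 with limma).

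*Opa1*, the fusion gene of the inner membrane, differed little. It was at 43.2, 42.4, 42.6 and 41.8 FPKM in CrT-/y and at 45.9, 42.8 and 44.4 FPKM in CrT+/y animals. CrT-/y replicate 0 lay above CrT+/y replicate 2, and the other 3 lay below all wild-type animals. The log2 fold change was -0.06 (95% interval -0.17 to 0.05, adjusted p = 0.474 with limma) and 0.0041 after quantile normalization, and an exact two-sided permutation test gave p = 0.0571.

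The fission genes differed in the sign of their log2 fold change, and neither passed the adjusted test. *Dnm1l*, the GTPase that divides mitochondria, was at 75.1, 74.6, 73.2 and 75.3 FPKM in CrT-/y replicates 0 to 3 and at 82.4, 78.9 and 77.1 FPKM in CrT+/y replicates 1 to 3. The genotypes did not overlap, the CrT-/y mean being 6.19% below that of wild-type animals. The log2 fold change was -0.09 (95% interval -0.20 to 0.02, adjusted p = 0.262 with limma), and the exact two-sided permutation test gave the smallest p the design allows, 0.0286. *Dnm1l* shares 243 exonic bases with the gene *Gm49521* on the other strand, which the table does not list.

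*Fis1* was the one regulator that lay higher in each CrT-/y animal. It was at 118, 117, 120 and 120 FPKM in CrT-/y replicates 0 to 3 and at 97.4, 88.7 and 115 FPKM in CrT+/y replicates 1 to 3. The CrT-/y animals lay close together (coefficient of variation 1.07%) and the wild-type animals far apart (13.5%), with CrT+/y replicate 3 just below the CrT-/y range. The means were 119 ± 1.27 FPKM (SD, n = 4) and 101 ± 13.6 FPKM (SD, n = 3), 18.1% apart. The log2 fold change was 0.25 with a standard error of 0.08 (95% interval 0.06 to 0.43, adjusted p = 0.112 with limma, unadjusted p = 0.0135), just outside the threshold, and the exact two-sided permutation test gave p = 0.0286. *Fis1* passed under 6 of 20 other settings: with a higher filter of 5 FPKM on the mean (adjusted p = 0.0988 with limma), quantile normalization (0.0621), upper quartile scaling (0.0811), median centring (0.09996), array weights (0.0447), and without CrT+/y replicate 3, where the log2 fold change was 0.35 (adjusted p = 0.0065 with limma).

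CrT+/y replicate 3 was the wild-type animal nearest to the CrT-/y mean in 5 of the 10 regulators, as it was in 44.7% of all genes tested (25.1% for replicate 1 and 30.2% for replicate 2). It also differed from the other wild-type animals in how values went with transcript length: the correlation across 12911 genes of its deviation from the genotype mean with log2 length was -0.25, against 0.05 and 0.19 for CrT+/y replicates 1 and 2 and -0.07 to 0.03 for the CrT-/y animals. *Fis1* has the shortest transcript of the 10 (948 bases) and *Ppargc1a* (6464 bases) and *Opa1* (6230 bases) the longest, and across the 10 the log2 fold change went with log2 length at Pearson's r of -0.78 (r = -0.18 over the 12911 genes). These are correlations across genes of the same 7 libraries, given as descriptions. When each animal was corrected for transcript length, an alternative chosen after seeing the data, the log2 fold change of *Fis1* was 0.16 (adjusted p = 0.142 with limma), over 1.5 times smaller, and that of *Mfn1* was -0.24 (adjusted p = 0.0625 with limma). A correction for GC content, also chosen after seeing the data, left 0.21 for *Fis1* (adjusted p = 0.120 with limma) and -0.23 for *Mfn1* (adjusted p = 0.0640 with limma).

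**Figure D3:**
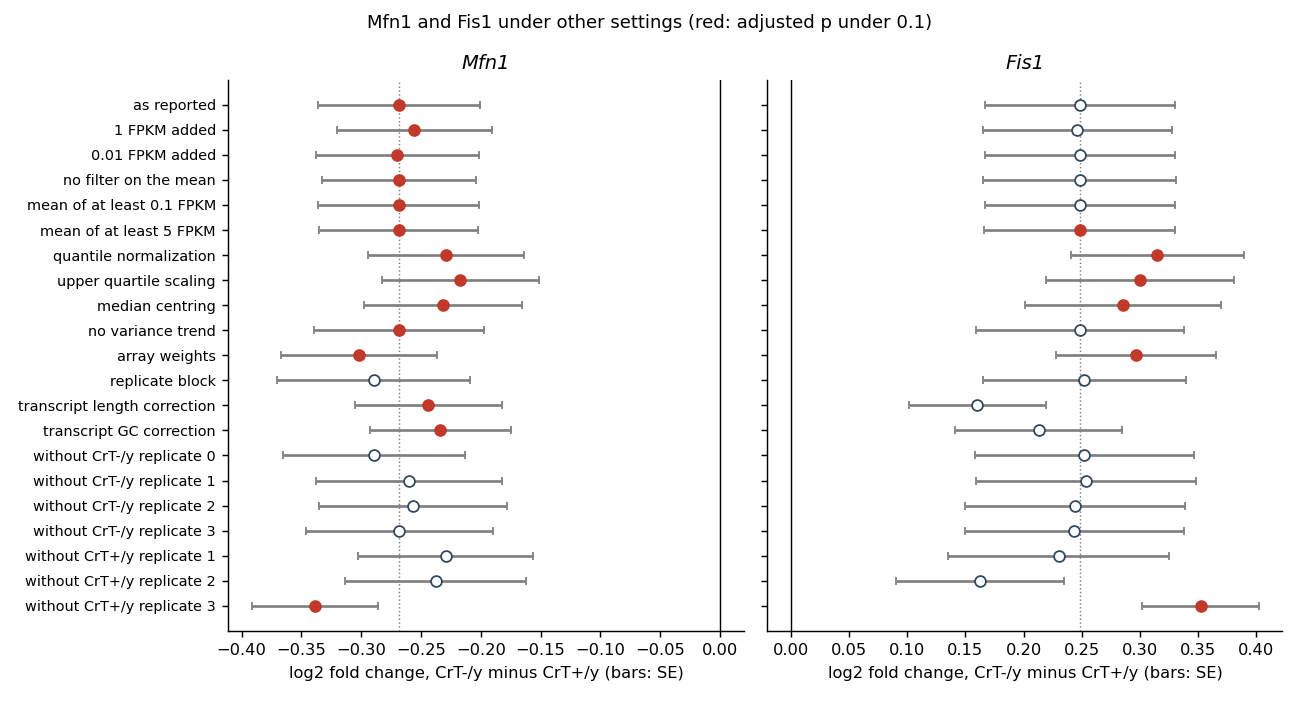
Log2 fold change of *Mfn1* and *Fis1*, CrT-/y minus CrT+/y, as reported and under 20 other settings (1 per line, bars for the standard error, dotted line for the reported value, red for an adjusted p under 0.1). *Mfn1* stays between -0.34 and -0.22 and is red in 13 of the 20 other settings, and *Fis1* lies between 0.16 and 0.35 and is red in 6.

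Ratios between the regulators within an animal, which do not depend on how libraries were scaled to each other, are given as descriptions with no test. *Fis1* to *Dnm1l* was 1.57, 1.58, 1.64 and 1.59 in CrT-/y and 1.18, 1.12 and 1.496 in CrT+/y animals, so that the fission genes stood closer to each other in each wild-type animal. *Fis1* to *Mfn1* was 7.13 to 7.77 in CrT-/y and 4.84, 4.46 and 6.67 in CrT+/y animals, again without overlap. Neither ratio with *Fis1* could overlap, since *Fis1* lay higher and *Dnm1l* and *Mfn1* lower in each CrT-/y animal. The lack of overlap in these ratios is therefore no further result. *Opa1* to *Mfn1*, both fusion genes, was 2.62 to 2.76 in CrT-/y and 2.15 to 2.57 in CrT+/y animals. The ratio of the mitofusins, *Mfn2* to *Mfn1*, was 3.95, 3.82, 4.15 and 3.64 against 3.39, 3.20 and 3.98, and overlapped through CrT+/y replicate 3.

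**Figure D4:**
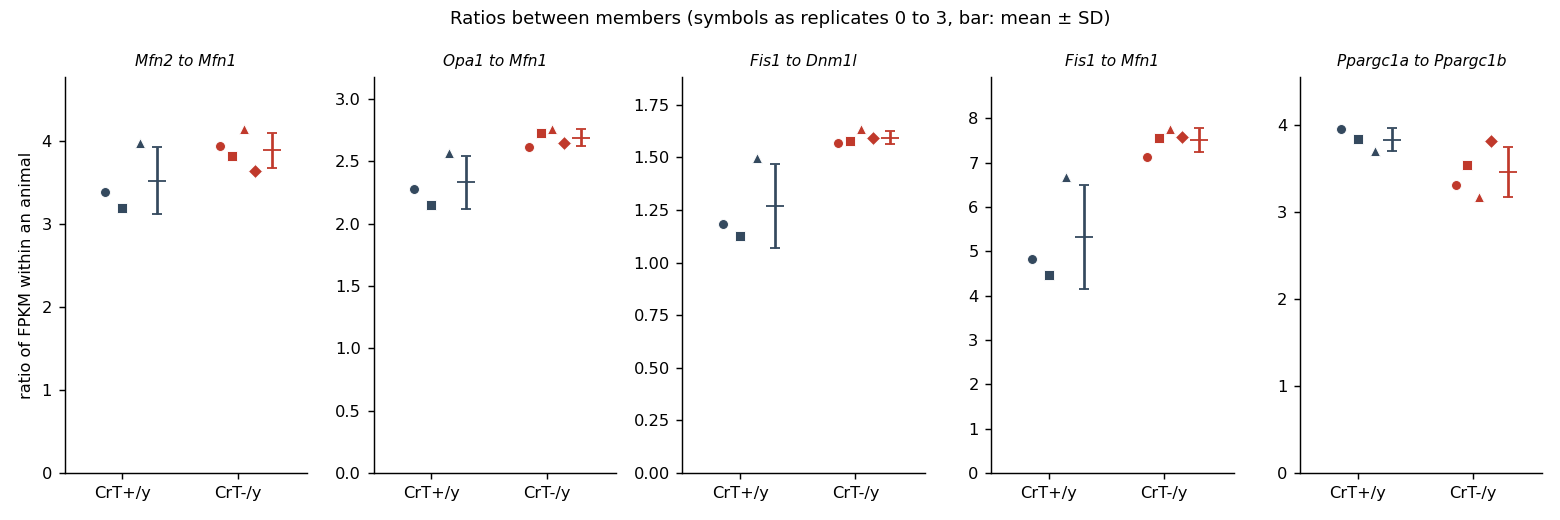
Ratios of FPKM between pairs of the regulators within each animal (vertical axes from 0, no unit), CrT+/y in blue and CrT-/y in red, symbols by replicate number as in the plot of FPKM and bars for the mean ± SD. *Opa1* to *Mfn1*, *Fis1* to *Dnm1l* and *Fis1* to *Mfn1* do not overlap between genotypes, with CrT+/y replicate 3 the wild-type animal nearest to the CrT-/y group in each. For the ratios with *Fis1* this follows from the FPKM of the single genes.

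The genes that work with these regulators were described by 9 lists. In all, 96 of the 115 listed genes were tested, and 9 passed, 1 higher and 8 lower in CrT-/y animals. That is 9.38%, near the 10.1% over all genes tested. The median log2 fold change of the 96 was -0.08 and 65 lay below 0. Over all 12988 genes tested the median was -0.03 and 7554 lay below 0. None of the 13 mRNAs encoded by mitochondrial DNA was found among the FPKM values under the symbols searched, so they could not be analysed. A further 6 genes had a mean under 1 FPKM.

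In the biogenesis network, 2 of 15 tested genes fell, none rose, and the median was -0.14. *Creb1*, the cyclic AMP response factor that can switch on *Ppargc1a*, was at 11.1, 11.0, 10.6 and 11.0 FPKM in CrT-/y and at 14.9, 14.5 and 12.1 FPKM in CrT+/y animals, with no overlap. Its log2 fold change was -0.33 (adjusted p = 0.0538 with limma). *Ncor1*, a corepressor of nuclear receptors, was at 37.9 ± 0.946 against 44.7 ± 3.91 FPKM (-0.23, limma adjusted p = 0.0801). The GABP subunit genes, named for the motif above and after their values were seen, did not pass: *Gabpa* was at 6.42 ± 0.425 against 7.43 ± 1.44 FPKM, *Gabpb1* at 7.17 ± 0.573 against 8.51 ± 1.02 FPKM and *Gabpb2* at 2.79 ± 0.103 against 2.93 ± 0.296 FPKM (adjusted p = 0.378, 0.169 and 0.727 with limma). Among 22 genes of mitochondrial DNA transcription and maintenance, which work beside *Tfam*, 1 fell and none rose (median -0.06). This was *Mterf2*, of the mitochondrial transcription termination factor family, at 7.04 ± 0.309 against 8.31 ± 0.320 FPKM (-0.24, limma adjusted p = 0.0800).

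Of 12 fusion partners and proteases that cut OPA1, 1 fell and none rose (median -0.09). *Stoml2*, a stomatin-like protein of the inner membrane, was at 24.5 ± 0.662 against 29.0 ± 3.00 FPKM (-0.24, limma adjusted p = 0.0905). The OPA1 proteases *Oma1* (-0.26, adjusted p = 0.144 with limma) and *Yme1l1* (-0.14, adjusted p = 0.207 with limma), named for their role after their values were seen, did not pass, although the genotypes did not overlap in either. Of 11 fission adaptors and partners, 1 fell and none rose (median -0.02): *Spire1*, an actin nucleator, was at 45.8 ± 1.95 against 53.1 ± 2.74 FPKM (-0.21, limma adjusted p = 0.0725). *Mff*, *Mief1* and *Mief2*, the receptors that bring DRP1 to mitochondria beside FIS1 and also named after their values were seen, did not pass (adjusted p = 0.758, 0.875 and 0.263 with limma).

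The genes of cristae and the MICOS complex, which work beside *Opa1*, were the one list with a median above 0 (0.07), and 1 of 10 rose while none fell. *Mtx1*, a metaxin of the outer membrane import machinery that contacts MICOS, was at 13.0, 13.3, 12.8 and 13.1 FPKM in CrT-/y and at 10.8, 10.6 and 10.8 FPKM in CrT+/y animals. The genotypes lay well apart, and the log2 fold change was 0.28 (adjusted p = 0.0353 with limma). None of 7 genes of mitochondrial transport passed at adjusted p under 0.1 with limma (median -0.07). The smallest p among them was that of *Rhot1*, a calcium-binding adaptor that links mitochondria to motor proteins, at 22.2 ± 0.399 against 24.5 ± 1.19 FPKM (-0.14, limma adjusted p = 0.151). In mitophagy, the removal of mitochondria that fission precedes, 2 of 15 fell and none rose (median -0.05). *Usp15*, a deubiquitinase that opposes parkin, was at 10.6 ± 0.309 against 13.4 ± 0.918 FPKM (-0.33, limma adjusted p = 0.0390), and the receptor *Tax1bp1* was at 46.9 ± 0.640 against 53.7 ± 3.61 FPKM (-0.19, limma adjusted p = 0.0909).

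Genes known to depend on PGC-1alpha in parvalbumin interneurons were the last list, and 1 of 4 passed, lower in CrT-/y animals. *Nefh*, a neurofilament subunit of large axons, was at 11.2, 9.54, 9.98 and 13.5 FPKM in CrT-/y and at 15.7, 15.0 and 16.2 FPKM in CrT+/y animals. All CrT-/y animals lay below the wild-type ones, and the log2 fold change was -0.51 (adjusted p = 0.0477 with limma). *Pvalb*, the calcium-binding protein that names these cells, was at 31.3, 20.9, 18.0 and 40.4 FPKM against 37.3, 30.7 and 48.9 FPKM (-0.54, limma adjusted p = 0.235), with overlap and a wide spread in both genotypes. *Syt2* and *Cplx1*, of transmitter release, had log2 fold changes of -0.28 and -0.12 (adjusted p = 0.163 and 0.312 with limma). *Ppargc1a* itself, as given above, overlapped between genotypes.

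Most of these list calls were lost when any 1 of several animals was left out, though all 9 log2 fold changes kept their sign. Calls over all genes fell as well, from 1318 to 64 without CrT-/y replicate 1 and to 247 without CrT+/y replicate 1. Leaving out CrT-/y replicate 1 ended all 9 (adjusted p 0.125 to 0.211 with limma), and leaving out CrT+/y replicate 1 all but that of *Mtx1* (0.113 to 0.225). *Mtx1* passed in 18, *Nefh* in 17 and *Usp15* in 16 of 20 other settings, *Creb1* in 13, *Mterf2* in 9, *Ncor1*, *Stoml2* and *Spire1* in 8, and *Tax1bp1* in 6. Without CrT-/y replicate 2 none of the 9 but *Mtx1* passed (0.112 to 0.212 for the others), and without CrT-/y replicate 0 (0.101 to 0.166) or 3 (0.120 to 0.174) *Mtx1*, *Usp15* and *Nefh* did. Without CrT+/y replicate 2 the lost calls were those of *Creb1* (0.113), *Ncor1* (0.162), *Mterf2* (0.157) and *Tax1bp1* (0.173).

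**Figure D5:**
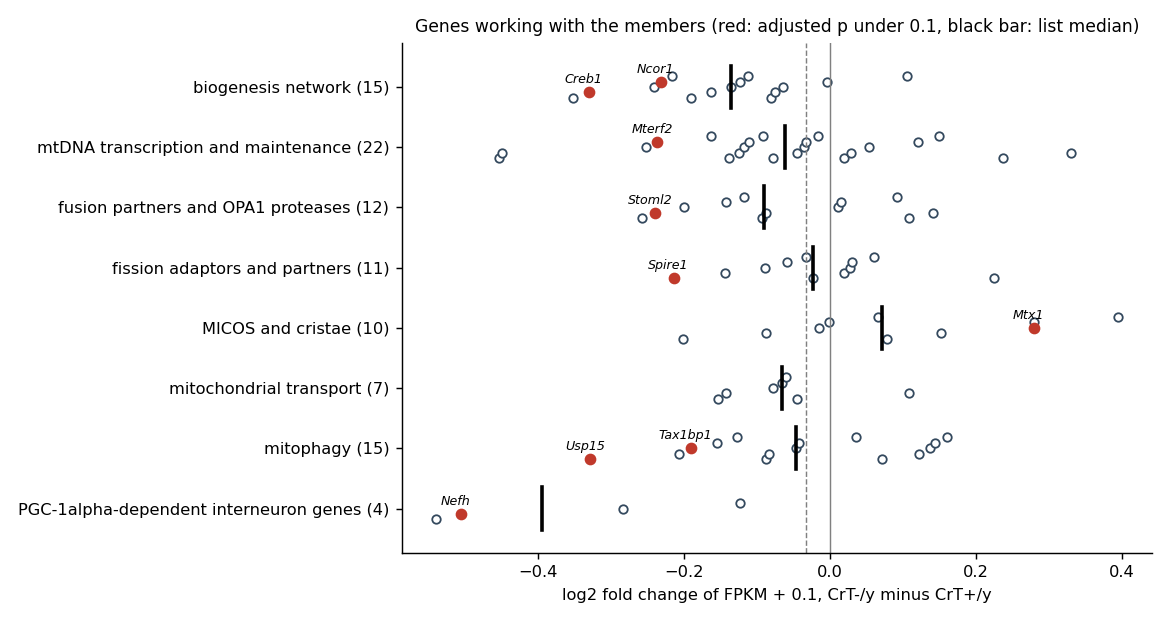
Log2 fold change of FPKM + 0.1, CrT-/y minus CrT+/y (horizontal axis), for each tested gene of 8 lists of genes that work with the regulators, the number tested in brackets, red for an adjusted p under 0.1, a black bar at each list's median and a dashed line at the median of all genes tested (-0.03). The 9 red genes are *Creb1*, *Ncor1*, *Mterf2*, *Stoml2*, *Spire1*, *Usp15*, *Tax1bp1* and *Nefh* on the lower side and *Mtx1* on the higher side.

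The genes whose log2 values ran most like those of *Mfn1* over the 7 animals were *Akap5* (Pearson's r = 0.997), *Vezf1* (0.995) and *Ubap2* (0.995), chosen as the highest 3 of the genes tested and given with no test. *Akap5*, a postsynaptic anchor of protein kinase A, was at 25.4, 23.2, 23.2 and 24.0 FPKM in CrT-/y and at 35.3, 33.3 and 27.9 FPKM in CrT+/y animals. The low wild-type animal was again replicate 3. The points share library and genotype, and a gene lower in CrT-/y animals with a low CrT+/y replicate 3 is like *Mfn1* by construction.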

How the data were processed

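Libraries were made from the cerebral cortex of 4 CrT-/y and 3 CrT+/y male mice with the Universal Plus mRNA-Seq kit and sequenced paired-end. Per the submitters' processing notes, Bowtie, Cuffnorm and the assembly mm10 were used, and the authors kept uniquely aligned reads and deposited 1 table of FPKM per gene and animal, without counts. Groups and replicate numbers came from the sample labels, and no column of values was left out. The 10 genes and the lists were chosen with earlier results of these data known.

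After 0.1 was added to FPKM and log2 taken, limma 3.58.1 in R 4.3.3 compared the genotypes in the 12988 genes whose mean reached 1 FPKM, with a variance trend. P-values were adjusted by Benjamini-Hochberg over these genes, and an adjusted p under 0.1 counted as passing. On this scale the change of low genes is understated. Exact two-sided permutation tests of mean FPKM used all 35 splits of the animals. The fit was tested on simulated data. With 3 and 4 animals p-values measure the spread between these animals only.

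Named were the 10 genes, *Slc6a8*, genes of each list with an adjusted p under 0.1 (at most 4, otherwise the 1 with the smallest p), and the 3 genes most correlated with each regulator that passed. Alternatives were other pseudocounts, filters and scalings, no variance trend, array weights, a replicate block, each animal left out and, added later, corrections for transcript length and GC content. Positions and lengths came from GENCODE M21 of GRCm38, matched by 23310 of 24346 symbols directly and 663 by synonym (99.4% of tested genes had a length), and promoter windows from RefSeq for GRCm38.p6. Python 3.11.15 with pandas 2.3.3, numpy 2.4.6 and matplotlib 3.10.9 did the rest.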

Additional observations from a re-analysis of the deposited data

Results flagged for a closer look

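Among the 24 named genes, 1 value in the 4 CrT-/y animals stood apart from the others by Dixon's test (its gap to the nearest was 0.877 of the range): *Creb1* in CrT-/y replicate 2 was at 10.6 FPKM (10.603), with the next animal at 11.0 FPKM and the highest at 11.1 FPKM. By chance alone about 1 in 20 such groups is marked, so 1 among 24 is near what chance gives. The 3 CrT+/y animals were too few for this test.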

How the results depend on the processing

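Over 20 other settings, 179 of the 199 values of the 10 regulators kept their sign and their side of the threshold. The number of regulators that passed was 1 as reported and 2 (*Mfn1* and *Fis1*) with array weights, median centring, quantile normalization, a filter of 5 FPKM or upper quartile scaling, and it ranged from 0 to 3 when single animals were left out. The sign turned for *Opa1* after quantile normalization (0.0041), and for *Ppargc1b* (-0.0029) and *Esrra* (-0.047) after the GC correction. With single animals left out, *Ppargc1b* ranged from -0.027 (without CrT+/y replicate 3) to 0.11 and *Esrra* from -0.019 (without CrT+/y replicate 2, below 0 also without CrT-/y replicate 1) to 0.040. None of these values passed in either setting, and the cause was not tested. All genes that passed numbered 1318 as reported, 730 with no filter on the mean, where 19100 genes were tested, and 64 to 3736 when single animals were left out. The median over all genes was -0.03 as reported and between -0.0023 and 0.02 under the other scalings. The genotypes share the replicate numbers 1 to 3, and the deviations of same-numbered animals correlated at -0.08, 0.05 and -0.05. Such correlations cannot tell whether same-numbered animals shared a litter or were handled together, and the labels do not say which shared a litter. A fit with the replicate block, which drops CrT-/y replicate 0, gave 583 genes and 0 of the 10 regulators (*Mfn1* -0.29, adjusted p = 0.120 with limma). FPKM carry no counts, so the counting error of the low genes *Ppargc1b* and *Nrf1* cannot be given.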

Other observations

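A few partner genes outside the rule for naming, chosen after their values were seen, are given as values. *Mtx2*, the partner of *Mtx1* in the outer membrane, was at 26.2, 27.2, 27.0 and 27.5 FPKM in CrT-/y replicates 0 to 3 and at 23.0, 24.0 and 25.8 FPKM in CrT+/y replicates 1 to 3. The genotypes did not overlap, as for *Mtx1*, but *Mtx2* did not pass the test (log2 fold change 0.15, limma adjusted p = 0.143). *Miga1*, a mitoguardin of outer membrane fusion, also lay higher in each CrT-/y animal, at 33.3 to 36.7 FPKM against 30.4 to 32.1 FPKM (0.14, limma adjusted p = 0.158). The mitophagy receptor *Bnip3l* missed the threshold of 0.1 narrowly, at 50.6 ± 0.783 FPKM (SD, n = 4) against 56.3 ± 1.79 FPKM (SD, n = 3) (-0.15, limma adjusted p = 0.10006).

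In the mitophagy genes *Sqstm1* and *Fkbp8*, CrT+/y replicate 3 lay on the other side of the CrT-/y animals from its own group. *Sqstm1*, the ubiquitin receptor p62, was at 196, 191 and 236 FPKM in CrT+/y replicates 1 to 3 and at 222 to 232 FPKM in CrT-/y animals. *Fkbp8*, an outer membrane receptor for mitophagy, was at 108, 112 and 134 FPKM in CrT+/y replicates 1 to 3 and at 129 to 132 FPKM in CrT-/y animals. Neither passed the test (limma adjusted p = 0.296 and 0.256), and the spread among the wild-type animals is like that of *Fis1* in the report.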
